A study of Arabidopsis thaliana with 12 samples.

Results

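CHLM, Z-ISO and AT1G74470 encode enzymes that make chlorophyll and carotenoids in the plastids of Arabidopsis thaliana, and their transcript signals were followed in plants moved to air with very little CO2. The genes were taken by name from the probes whose annotation gives a single gene. Each of the 3 had 1 such probe, out of 692 single-gene probes and 3439 probes in all. Wild-type plants of the Columbia 0 ecotype had spent 48 h in air with 0.003% CO2 by volume in 6 samples (low CO2), and 6 samples came from plants kept at normal CO2. No mutation, transgene or other agent is named for either group. The titles place the low CO2 samples at day 2 and the normal CO2 samples at day 0, so a difference between the groups cannot be told apart from one that arose over those days. The labels name no tissue and do not say whether samples of a group were separate plants or pools, so the spread behind the p-values below is that among these samples and could be of technical origin.

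Chlorophyll is assembled from glutamate through porphyrin intermediates. Once magnesium has been placed in protoporphyrin, the methyltransferase CHLM adds a methyl group from S-adenosylmethionine, and later steps close the fifth ring and attach a long phytyl tail. Geranylgeranyl reductase, the product of AT1G74470, makes that tail by reducing geranylgeranyl groups, and it supplies tocopherol synthesis as well. Carotenoids arise from geranylgeranyl diphosphate too. Z-ISO isomerizes a cis double bond of zeta-carotene, a step between the desaturations that lead to lycopene. In leaves both kinds of pigment are bound by the antenna and reaction centre proteins of the thylakoid, and carotenoids also protect against excess light.

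Total RNA was read on arrays with deposited intensities on a linear scale. The array means lay between 0.993 and 1.04 in low CO2 samples and between 1.05 and 1.10 in normal CO2 samples, while array medians averaged 0.359 ± 0.0111 and 0.519 ± 0.0404 in the same order of groups (SD, n = 6 each). Arrays were therefore quantile normalized on the log2 scale, which sets their distributions equal. The median probe then had a log2 fold change of -0.05, against -0.60 without scaling. Of 6 genes taken as markers of green tissue (LHB1B2, PSAN, PSBW, PSBY, PRK and SBPASE), 5 ranked above the 75th percentile of probes on every array. SBPASE, the exception, had a lowest rank of 36.6. The summed intensity of the 6 markers ran between 28.7 and 51.4 in low CO2 samples and between 20.6 and 32.0 in normal CO2 samples, and none had a value of 0. Such a sum leans on the brightest markers, and PSBW ranked at 99.3 or higher on every array. Single markers moved both ways: LHB1B2 (-0.97), PRK (-0.73) and SBPASE (-0.68) fell on the log2 scale (limma adjusted p = 0.00178, 0.00451 and 0.00626), as CHLM did. PSBW (0.97) and PSBY (0.46) rose (adjusted p = 0.00178 and 0.0474), and PSAN was at -0.19 (adjusted p = 0.662). Their part in the results below was not tested.

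CHLM signal fell at low CO2. Its deposited intensity was 0.159 at the lowest, 0.199 at the median and 0.320 at the highest in low CO2 samples, against 0.680, 0.756 and 1.10 in normal CO2 samples. Every low CO2 sample lay below every normal CO2 sample, and the means were 0.220 ± 0.0624 and 0.839 ± 0.187 (SD, n = 6 each). On normalized values the log2 fold change was -1.41 ± 0.22 (SE; 95% interval -1.88 to -0.94; limma, Benjamini-Hochberg adjusted p = 0.000305), and on the deposited scale it was -1.95. Within arrays, the CHLM probe ranked at the percentile 34.7 ± 8.42 among all probes at low CO2 and at 66.6 ± 6.91 at normal CO2. In RNA from whole samples, fewer cells that express a gene and less of its RNA per cell cannot be told apart.

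Z-ISO signal was dim at low CO2 and in 1 sample it was listed at 0. Its deposited intensity was 0 at the lowest, 0.0874 at the median and 0.161 at the highest in low CO2 samples, against 0.411, 0.616 and 0.833 in normal CO2 samples. The groups again did not overlap, and the means were 0.0864 ± 0.0538 and 0.631 ± 0.151 (SD, n = 6 each). The value of 0 belonged to low CO2 replicate 5, whose array had 196 values of 0, within the range of 187 to 302 in low CO2 samples. It was replaced by the smallest positive value of that array before taking log2, which put this sample at -12.54 on the normalized scale, while the other low CO2 samples lay between -3.30 and -2.32. With that value in, the log2 fold change was -3.55 ± 1.52 (SE; 95% interval -6.89 to -0.22) and did not pass (limma adjusted p = 0.0811).

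The call for Z-ISO thus turned on a single sample. Without low CO2 replicate 5 the log2 fold change was -1.95 ± 0.27 (limma adjusted p = 0.000263). With values of 0 treated as missing, a fit that drops this sample for Z-ISO, it was -2.09 ± 0.27 (adjusted p = 8.33e-05). With a pseudocount of 0.0493 added to all values it was -1.92 ± 0.34 (adjusted p = 0.000452). A test on ranks needs no replacement. The Z-ISO probe ranked at the percentile 16.7 ± 7.97 of its array at low CO2 and at 55.7 ± 11.3 at normal CO2, a difference of -39.0 percentile points (exact two-sided permutation test over samples, p = 0.00216, the smallest it can give; 0.00755 adjusted over all probes). The same test gave -31.9 points for CHLM, with the same p-values.

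**Figure D1:**
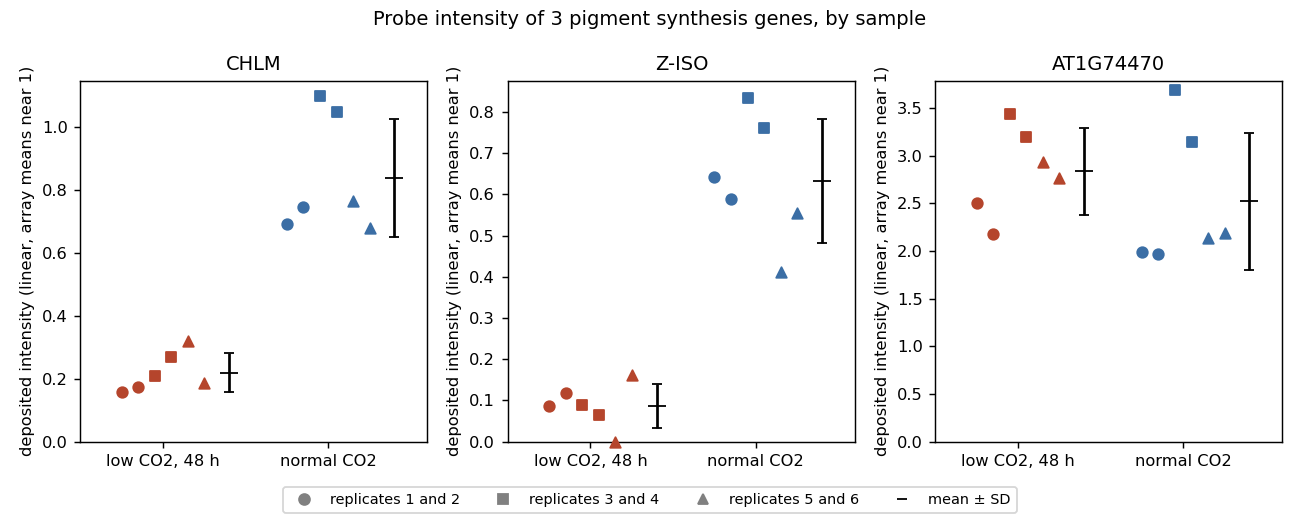
Deposited probe intensity (linear scale) of CHLM, Z-ISO and AT1G74470 in each of 6 low CO2 and 6 normal CO2 samples, with marker shapes for adjacent replicate numbers and bars for the mean ± SD. CHLM and Z-ISO are separated between the groups, with Z-ISO listed at 0 in low CO2 replicate 5, while AT1G74470 overlaps and has replicates 3 and 4 highest in both groups.

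AT1G74470 signal did not pass the test. Its deposited intensity was 2.18 at the lowest, 2.85 at the median and 3.44 at the highest in low CO2 samples, against 1.97, 2.16 and 3.69 in normal CO2 samples. The groups overlapped, with means of 2.84 ± 0.459 and 2.52 ± 0.722 (SD, n = 6 each). The log2 fold change was 0.22 ± 0.18 (SE; 95% interval -0.17 to 0.61) and did not pass (limma adjusted p = 0.345). This probe was bright throughout, at percentile 93.9 ± 1.36 of its array at low CO2 and 92.2 ± 2.50 at normal CO2. Its value depended on how the arrays were scaled. It was 0.73 (limma adjusted p = 0.0176) with array medians set equal and 0.59 (adjusted p = 0.0167) with the 75th percentiles set equal, but 0.32 (adjusted p = 0.170) by cyclic loess and 0.20 (adjusted p = 0.408) with no scaling.

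Of the 3 genes, 1 passed, CHLM, where 42.4% of all probes passed and 23.5% passed as lower at low CO2. By ranks 2 of 3 passed, against 44.1% of all probes. Low and normal CO2 samples were fully separated in deposited intensity for 2 of 3, against 34.5% of probes, and 27.3% of probes were separated as lower at low CO2. On normalized values 2 of 3 were separated, against 28.0%. In the order of all fold changes, 423 probes (12.3%) had a lower fold change than CHLM, 101 (2.94%) a lower one than Z-ISO, whose value includes the replaced 0, and 60.7% a lower one than AT1G74470.

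**Figure D2:**
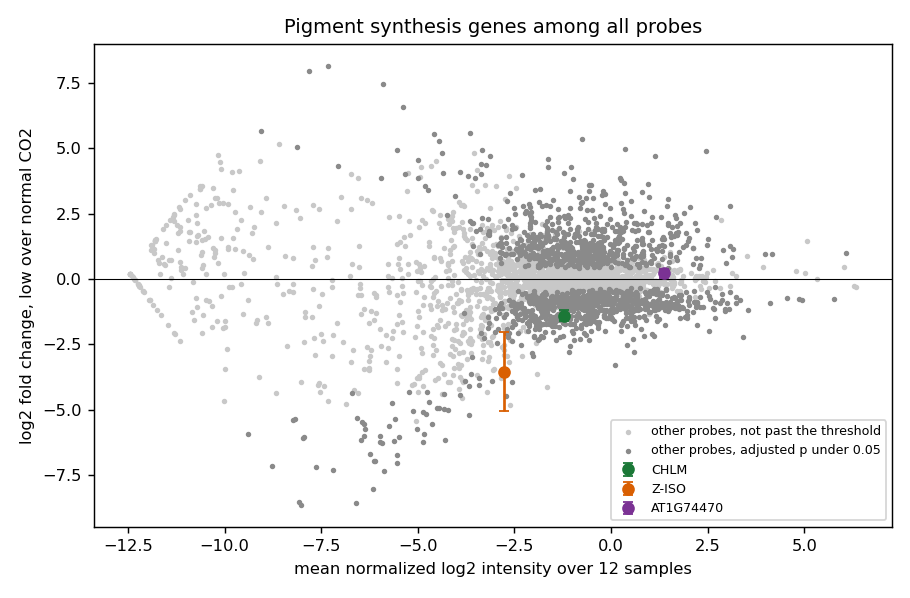
Log2 fold change (low over normal CO2) against mean normalized log2 intensity for all 3439 probes, with CHLM, Z-ISO and AT1G74470 in colour and bars for their SE. CHLM at -1.41 lies among the called probes, Z-ISO at -3.55 has a long error bar, and AT1G74470 at 0.22 lies near 0.

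Whether the genes differed in their change was tested on the ratio of a pair of probes within each array, which does not depend on a scaling factor between arrays. It can still move with the shape of the distributions, whose medians differed between groups more than their means, where the probes differ in brightness. Only the change of such a ratio between groups can be read, since probes differ in brightness for reasons other than transcript level. The log2 ratio of CHLM to AT1G74470 was -3.72 ± 0.31 in low CO2 samples and -1.57 ± 0.13 in normal CO2 samples (SD, n = 6 each), with ranges of -4.03 to -3.20 and -1.75 to -1.40. The ranges lay apart, and CHLM changed by -2.15 on the log2 scale relative to AT1G74470 (exact two-sided permutation test, unadjusted p = 0.00216, the smallest it can give, among 3 ratios tested). On quantile normalized values this change was -1.63 (exact p = 0.00216). How many other pairs of probes lie apart in this way was not counted. The genes were chosen with earlier results of these data known, and the p-values of the ratios do not allow for that choice. For Z-ISO relative to AT1G74470 the change was -2.83 without the sample at 0 (exact p = 0.00216) and -4.67 with it (exact p = 0.00216). It was -3.77 on normalized values and -2.62 with the pseudocount (exact p = 0.00216 for both).

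Z-ISO and CHLM were not shown to differ from each other in size of change. Their log2 ratio ran between -12.71 and -0.22 in low CO2 samples and between -0.90 and -0.11 in normal CO2 samples, and the groups overlapped. The difference of -2.53 (exact permutation p = 0.0433) rested on the value of 0. It was -0.57 without that sample (exact p = 0.0779) and -0.69 with the pseudocount (exact p = 0.102). With same-numbered samples paired, the exact sign-flip test gave p = 0.0625 for the -2.53.

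**Figure D3:**
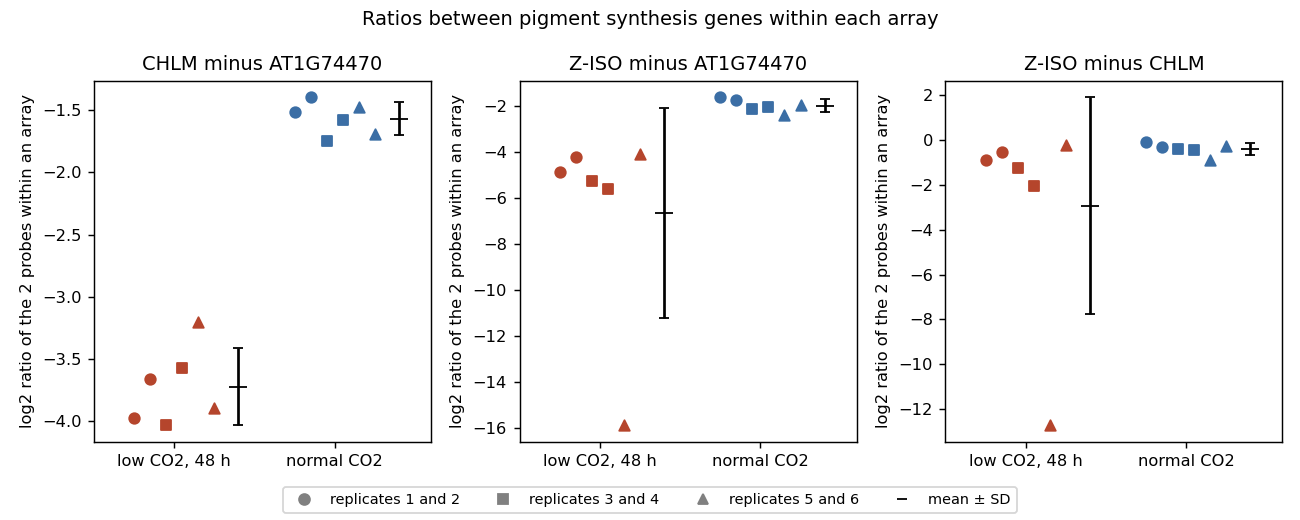
Log2 ratio of 2 probes within each array for the 3 gene pairs, in 6 low CO2 and 6 normal CO2 samples, with bars for the mean ± SD. The ratio of CHLM to AT1G74470 lies between -4.03 and -3.20 at low CO2 and between -1.75 and -1.40 at normal CO2, and low CO2 replicate 5 stands far below in both ratios with Z-ISO.

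Samples with adjacent replicate numbers (1 and 2, 3 and 4, 5 and 6) were alike to different degrees. Over all probes, their deviations from the group mean correlated at -0.077 to 0.437 in the 6 such pairs. That mean includes both samples, which lowers these correlations. A fit with these pairs as a random block put the correlation within a pair at 0.567. The fit on group alone, which gave the limma p-values above, takes the 12 samples as independent. Its p-values can be too small if adjacent samples are not independent, and so can those of the exact permutation tests on ranks and ratios. With adjacent samples averaged, the ratios had exact permutation p = 0.1, the smallest that 3 against 3 allows. The rank test was not run on averaged samples. For AT1G74470, normalized log2 levels within such a pair differed by at most 0.21 at low CO2 and 0.23 at normal CO2, while the pair means spanned 0.42 and 0.76. Numbers 3 and 4 were highest in both groups, with pair means of 1.66 and 1.69. For CHLM the pair means were -2.36, -1.72 and -1.72 at low CO2 and -0.61, -0.16 and -0.81 at normal CO2, so every pair was lower at low CO2. The largest gap within a CHLM pair was 0.78, between low CO2 replicates 5 and 6, more than the 0.64 that the low CO2 pair means spanned. At normal CO2 the gap was at most 0.21 and the pair means spanned 0.65. With adjacent samples averaged, 3 against 3, the SE of the CHLM change grew to 0.30 and the gene still passed (limma adjusted p = 0.0320), where 18.0% of all probes passed. It also passed with adjacent pairs as a random block (adjusted p = 0.00311, where 29.3% of probes passed). Z-ISO (adjusted p = 0.107 and 0.339) and AT1G74470 (0.613 and 0.458) passed neither. Both Z-ISO fits kept the replaced 0, with SE of 1.26 and 2.53, and neither was run without it. For Z-ISO they therefore cannot separate the effect of adjacent samples from that of the 0.

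Same-numbered samples of the groups can also be set against each other. CHLM was lower at low CO2 for 6 of 6 numbers, by normalized log2 differences of -1.76 to -0.63, the smallest at number 5. Z-ISO was lower for 6 of 6 numbers, from -10.73 at number 5, the replaced 0, to -1.06 at number 6. AT1G74470 was higher for 5 of 6 numbers, from -0.11 at number 3 to 0.43 at numbers 1 and 5. With the averaged pairs and the replicate number as a block together, the CHLM change of -1.41 no longer passed (limma adjusted p = 0.0550). The pooled SD within groups was 0.37 for CHLM and 0.29 for AT1G74470 on the normalized log2 scale, against a median of 0.46 over all probes, and 2.80 for Z-ISO.

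**Figure D4:**
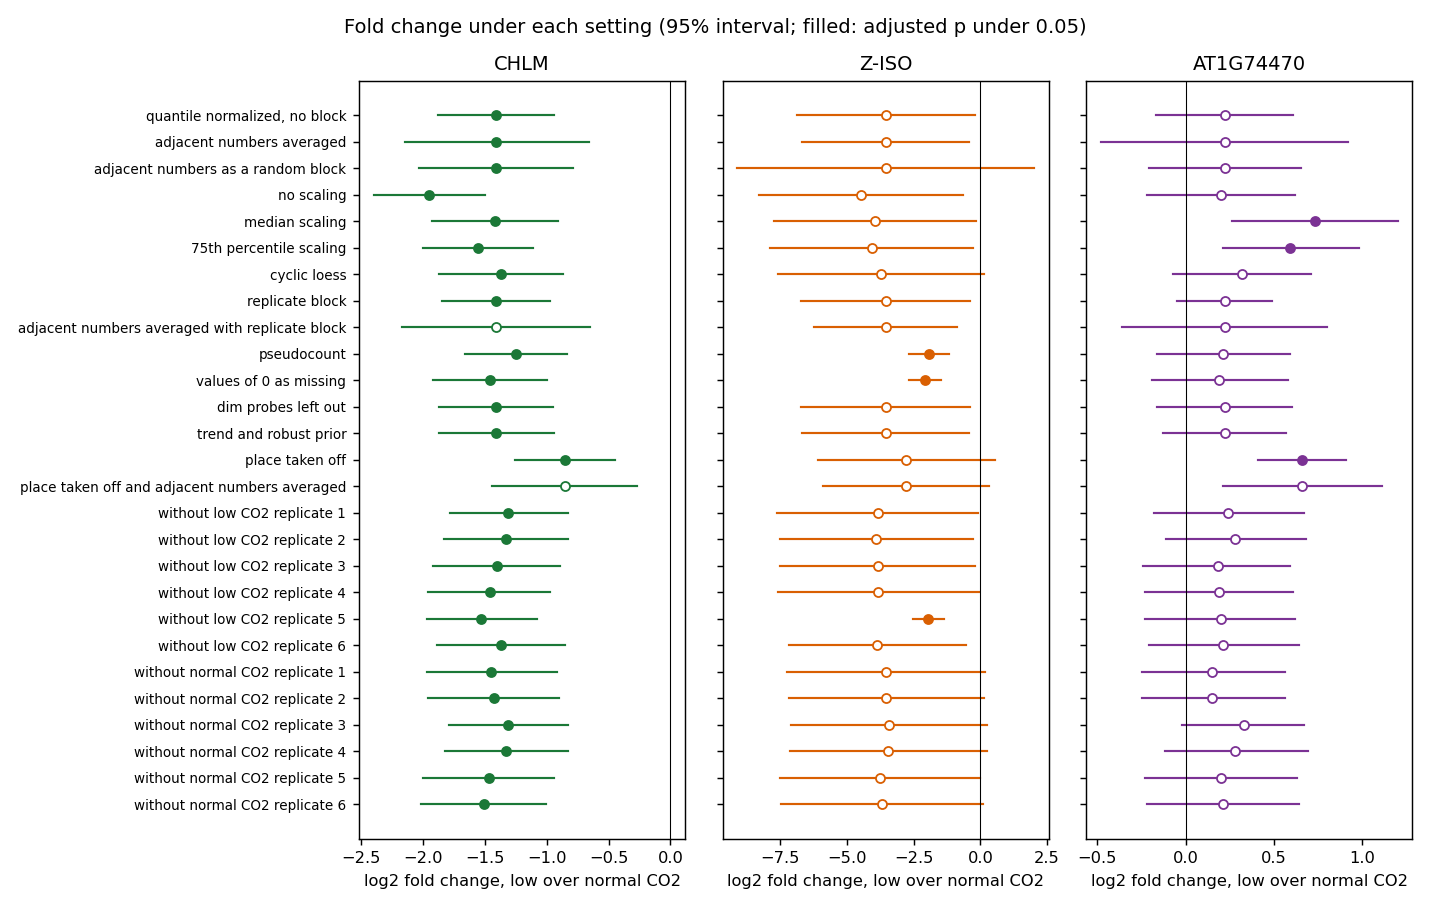
Log2 fold change (low over normal CO2) of each gene under each way of processing, with 95% intervals and filled symbols where the limma adjusted p was under 0.05. CHLM keeps its sign under every setting shown, the Z-ISO interval narrows where the value of 0 is left out or padded, and AT1G74470 runs from 0.15 to 0.73.

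Fold changes on these arrays also varied with the place of a probe in the numbering, in a repeat of 288 numbers divided into 48 bins. The repeat length was chosen in the processing, by dividing the highest probe number by 16 and rounding up. It was not taken from a layout of the arrays. All 3 genes sat in bins where the other probes were mostly lower at low CO2. The 69 other probes in the CHLM bin had a median log2 fold change of -0.68, the 70 in the Z-ISO bin -0.74 and the 70 in the AT1G74470 bin -0.44. In its bin, 11 probes were lower than CHLM and 58 higher. For AT1G74470, 52 were lower and 18 higher. With each sample's median deviation in the bin taken off, CHLM was at -0.85 ± 0.18 (limma adjusted p = 0.00362) and Z-ISO at -2.78 ± 1.51 (adjusted p = 0.172). This Z-ISO fit kept the replaced 0, and none with the place taken off was run without it. AT1G74470 was at 0.66 ± 0.11 (adjusted p = 0.000903), so that 2 of 3 genes passed, in opposite directions, where 37.5% of probes passed. With adjacent samples averaged as well, neither CHLM (adjusted p = 0.0693) nor AT1G74470 (0.0680) passed. The part of the place in these changes was not tested otherwise.

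**Figure D5:**
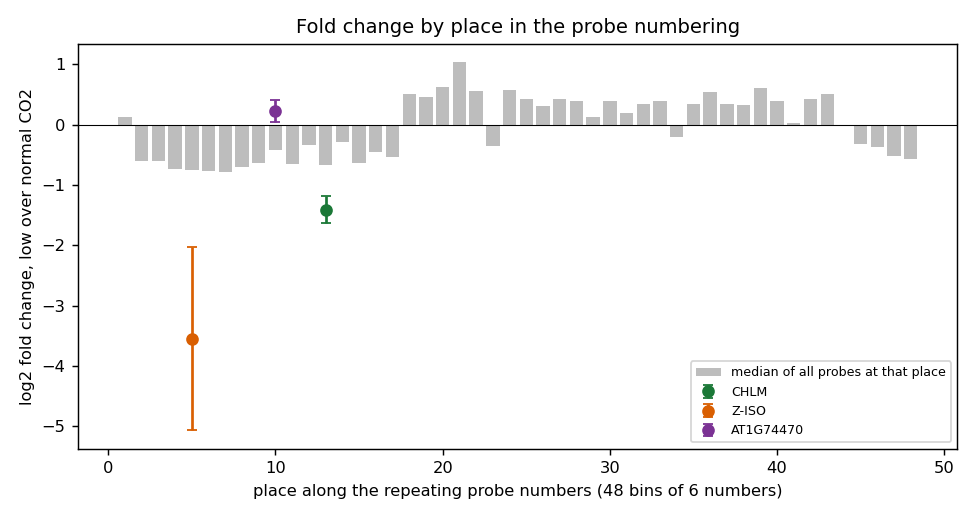
Log2 fold change (low over normal CO2) by place in the repeating probe numbers, with grey bars for the median of all probes in each of 48 bins and coloured points with SE for the genes. The bins of CHLM, Z-ISO and AT1G74470 all have medians below 0.

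The pathways around these genes were covered thinly. Of 38 genes listed for chlorophyll synthesis, 3 had a single-gene probe, and 2 of these, CHLM and HEMA3, fell while none rose, where 23.5% of all probes fell. The HEMA3 call was lost in 13 of 27 alternatives. Of 22 for carotenoid synthesis and cleavage, only Z-ISO had one. None was found for the 10 genes of chlorophyll breakdown, the 15 of the plastid isoprenoid precursor pathway or the 6 of tocopherol synthesis, and these were not analysed here. A further 5 probes carry a listed gene together with another gene and cannot be assigned. Of these, 1 rose and 1 fell, where 42.4% of all probes passed in either direction, within a span of -0.52 to 1.30 on the log2 scale.

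HEMA3, the additional chlorophyll gene, encodes a form of glutamyl-tRNA reductase, the enzyme at the entry to porphyrin synthesis. Its deposited intensity was 0.426 at the lowest, 0.684 at the median and 0.810 at the highest in low CO2 samples, against 1.01, 1.09 and 1.62 in normal CO2 samples. These values did not overlap, but they did once the arrays were normalized. HEMA3 fell, its normalized log2 fold change being -0.50 ± 0.18 (SE; limma, adjusted p = 0.0420). The call was lost with array medians set equal (-0.38, adjusted p = 0.163), with adjacent samples averaged (adjusted p = 0.234), with adjacent pairs as a random block (adjusted p = 0.126) and with the place taken off (-0.24, adjusted p = 0.208). Averaging together with a replicate block (adjusted p = 0.166) or with the place taken off (0.442) lost it too. It was also lost in 7 of 12 fits that left out 1 sample, those without low CO2 replicates 3, 4, 5 or 6 or normal CO2 replicates 1, 2 or 4 (adjusted p up to 0.0877).

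Profiles over the 12 samples were compared with those of 501 other single-gene probes above the 25th percentile of mean signal. Likeness was the root mean square difference of normalized log2 values, each gene centred on its own mean. Genes picked in this way share the direction of the gene they resemble by choice, so their fold changes are given as a description, with no test. Closest to CHLM were SECE1, a subunit gene of the plastid Sec protein translocase, at 0.27, AT3G08000 at 0.27 and LAS, a regulator of side shoot formation, at 0.29, where the median over the 501 was 0.88. Their log2 fold changes were -1.25 ± 0.19, -1.17 ± 0.14 and -1.55 ± 0.14 (SE). SECE1 averaged 0.364 ± 0.0853 in low CO2 samples and 1.18 ± 0.215 in normal CO2 samples (SD, n = 6 each). Between CHLM and AT1G74470 themselves the difference was 0.85, and between CHLM and Z-ISO it was 2.95.

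Closest to AT1G74470 were AT4G31530 at 0.15, AT4G04370 at 0.19 and AT5G55570 at 0.19, against a median of 0.61. Their log2 fold changes of 0.21, 0.01 and 0.27 depended on the processing. AT4G31530 was at 0.68 with no scaling and 1.21 with array medians set equal, and AT4G04370 at -0.57 with no scaling and 0.74 with the place taken off. AT5G55570 was at -0.32 with no scaling. Likeness to Z-ISO takes in the sample at 0. Its closest probes, AT1G31220 at 2.09, AT3G47980 at 2.29 and AT2G28790 at 2.32, all had their lowest low CO2 value in replicate 5, and the median was 3.14. Their log2 fold changes were -1.08 ± 0.61, -1.14 ± 0.45 and -1.46 ± 0.41 (SE). Without low CO2 replicate 5, AT1G31220 was at -0.48 and AT3G47980 at -0.73. With the place taken off, AT2G28790 was at -0.86.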

How the data were processed

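Gene expression by array was taken from the series' table of deposited intensity values, which the authors had scaled to array means near 1 with an upper bound of 100. No scanner, background correction or set of spots for the scaling is given in the sources used here. Names came from the platform annotation, matched to TAIR10.1 names. The members and gene lists were chosen with earlier results of these data known. Named were the 3 members, listed pathway genes with a single-gene probe, and the 3 most alike genes per member.

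A value of 0 was replaced by its array's lowest positive value, and the deposited intensity was put on the log2 scale and quantile normalized. All 3439 probes, also unnamed ones, were fitted on group alone, two-sided, by limma (version 3.58.1, lmFit with eBayes, under R 4.3.3). Benjamini-Hochberg adjustment ran over all probes, and the threshold was 0.05. The number of arrays limits precision. No arrays held identical values. On simulated data with 200 of 3439 probes changed, the fit recovered 13.2%, 42.9% and 71.0% of log2 changes of 0.5, 1 and 2. The simulated samples were drawn independently and far fewer probes were changed than the 42.4% called here. These shares therefore check the fit and do not give its power on these arrays.

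Deviations of same-numbered samples from their group means correlated at 0.128 to 0.214, over 0.1 for all 6 numbers. Different numbers gave -0.162 to 0.126 over 30 pairings, so the margin was narrow. The numbers come from the titles, which do not say that samples were paired. Alternatives covered scaling, blocks, averaging of adjacent numbers, values of 0, a rank test, dim probes, the variance prior, the place of a probe and left-out samples. Applying them to HEMA3 and the most alike genes, and leaving out the sample at 0 from the ratios, was chosen after seeing the data.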

Additional observations from a re-analysis of the deposited data

Results flagged for a closer look

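In 1 of 8 groups of 6 values tested (CHLM, Z-ISO, AT1G74470 and HEMA3 in each group), a sample stood far from the others, where chance gives about 0.4. It was low CO2 replicate 5 for Z-ISO, whose gap to the nearest sample was 0.904 of the group's range on normalized log2 values. The size of this gap was set by replacing the 0 with the smallest positive value of its array, 4.78e-05. The chance figure therefore does not gauge it. The deposited value of this sample was 0, against 0.0650 to 0.161 in the other low CO2 samples.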

How the results depend on the processing

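CHLM was negative in all 27 alternatives run and passed in 25. The exceptions were averaged adjacent numbers with a replicate block (-1.41, limma adjusted p = 0.0550) and the place taken off with adjacent numbers averaged (-0.85, adjusted p = 0.0693). With 1 sample left out CHLM ran from -1.53 to -1.31. Z-ISO was negative in all 27 and passed with the pseudocount (-1.92), with values of 0 as missing (-2.09), by rank (-39.0 percentile points) and in 1 of 12 fits that left out 1 sample, which ran from -3.90 to -1.95. AT1G74470 was positive in all 27 and passed with median (0.73) and 75th percentile scaling (0.59) and with the place taken off (0.66), and ran from 0.15 to 0.33 with 1 sample left out. The replicate block alone changed no call for these genes, at -1.41, -3.55 and 0.22 (limma adjusted p = 0.00150, 0.0673 and 0.157). Over all 12 samples the 3 probes averaged above the limit on dim probes, an intensity of 0.227, but at low CO2 the means of Z-ISO (0.0864) and CHLM (0.220) were below it, so passing it says nothing of their signal there. None had a further probe to try.

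Of all probes 1457 passed, against 1006 with adjacent numbers as a random block, a fit that keeps all 12 samples. With adjacent numbers averaged 618 passed, 375 with the replicate block as well, and 454 with averaging and the place taken off. Averaging leaves fewer samples in the fit, and its part in the lower counts was not tested. With 1 sample left out 1332 to 1425 passed. Ratios on averaged numbers (-2.15, -4.67 and -2.53) had exact p = 0.1, the smallest that 3 against 3 allows. The Z-ISO to CHLM difference was -0.69 with the pseudocount, -2.53 with the replicate block, -2.14 on normalized values (exact p = 0.0931) and -0.57 without low CO2 replicate 5. For Z-ISO to AT1G74470 it was -2.83 without that sample.

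AT4G04370 turned sign with no scaling (-0.57), median (-0.04) and 75th percentile scaling (-0.17), values of 0 as missing (-0.04), by rank (-0.0242 points) and in 5 of 12 fits without 1 sample. All 12 of those fits ran from -0.09 to 0.14. AT5G55570 turned with no scaling (-0.32) and with the place taken off, with and without averaging (-0.36 in both). Apart from the value of 0, the causes were not tested. Dim signal limits Z-ISO.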
